A study of Mus musculus with 4 samples.

Results

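The genes that build ribosomes and those of the Myc growth programme were followed through the thymus of a control mouse and of a mouse lacking *Eif4g2* in T cells. The set was a fixed list of 40 gene symbols, each found once in the gene tables of both libraries among 21926 genes in all. It holds *Myc*, *Mycn* and *Max*, 4 enzymes of polyamine and nucleotide metabolism, the nucleolar proteins nucleolin (*Ncl*) and nucleophosmin (*Npm1*), 3 proteins of box C/D and 5 of box H/ACA small nucleolar ribonucleoproteins (snoRNPs), 11 factors of large and 6 of small ribosomal subunit assembly, 3 subunits of RNA polymerase I and 3 other growth-related genes. The list is one of gene symbols chosen with earlier results of these data known, and levels are described by thymocyte stage, by total unique molecular identifiers (UMIs) per cell and by genotype.

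Ribosomes are assembled in the nucleolus. RNA polymerase I transcribes the precursor of ribosomal RNA, box C/D and box H/ACA snoRNPs methylate and pseudouridylate it, and assembly factors fold and cut it into the small and the large subunit. The transcription factor Myc, paired with Max, binds E-box DNA and is known to raise many of these genes when cells grow. In the thymus, growth and division are known to be strongest when double-negative (DN) cells pass β-selection and become cycling blasts, small double-positive (DP) cells are quiescent, and positively selected cells go on to become single-positive (SP) cells.

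The genotypes were represented by 1 thymus each: an *Eif4g2* flox/flox mouse without Cre (WT) and a CD4-Cre; *Eif4g2* flox/flox mouse (*Eif4g2* cKO), both 5 weeks old, labelled female and given the same batch label. *Eif4g2* encodes a translation initiation factor, and Cd4-Cre is known to act from the DP stage on, so DN cells of the cKO mouse would be expected to keep the gene. How far it was recombined in these cells was not measured. Thymus suspensions were not sorted and went into droplets of the DNBelab C4 platform, and the oligo libraries of the same mice were not analysed here. With 1 library per genotype no test is possible: UMIs were summed over cells, levels are given as the share of a class's UMIs on the CPM scale, and every interval in this text is a 95% interval that covers counting error only. A ratio was called when it passed 1 on the log2 scale between bins or stages, or 0.5 between genotypes. At least 50 UMIs over both sides were also required. The share of all genes called the same way stands beside the counts of the main comparisons. Counts of tags near the 3′ end depend on the gene, so each level is compared only with that of the same gene in other cells.

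The E-box CACGTG, the preferred site of Myc and Max, was searched in RefSeq promoter windows of GRCm38.p6 that run from 250 bases before to 50 bases after a gene's start. It lay in the windows of 8 of the 33 members with a window (24.2%, exact binomial interval 11.1 to 42.3) and of 2187 of 27025 genes in all (8.09%). The motif reads the same on both strands. *Myc*, *Srm*, *Npm1*, *Fbl*, *Rrs1*, *Rrp12* and *Bop1* had no window here. The 8 matches are shown because Myc and Max are known to prefer these letters, and the calls of the 8 genes are given with the contrast by UMI content. Each is printed 5′ to 3′ on the strand of its gene, with the E-box in capitals. The windows lay at chr12:76962234-76962263 (minus strand, E-box 3 bases before the start) for *Max*, chr6:125131811-125131840 (plus, 60 before) for *Nop2*, chr11:3963965-3963994 (plus, 2 after) for *Pes1*, chr17:71616220-71616249 (plus, 17 after) for *Wdr43*, chr8:106893643-106893672 (plus, 15 after) for *Utp4*, chr10:88826765-88826789 (minus, 37 after) for *Utp20*, chr11:72441355-72441376 (plus, 40 after) for *Mybbp1a* and chr10:61648469-61648498 (plus, 140 before) for *Ppa1*. A match is a run of letters and not a measured binding site.
Max: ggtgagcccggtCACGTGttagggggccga
Nop2: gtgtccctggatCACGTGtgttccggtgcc
Pes1: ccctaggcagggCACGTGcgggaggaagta
Wdr43: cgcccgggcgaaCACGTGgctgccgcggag
Utp4: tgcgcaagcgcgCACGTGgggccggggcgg
Utp20: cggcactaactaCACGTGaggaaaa
Mybbp1a: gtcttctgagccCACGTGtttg
Ppa1: gccggcgcctgcCACGTGgcccaggttgcg

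The WT library held 6012 cells after filtering and the cKO library 4335, with 18355050 and 18056277 UMIs in their files and medians of 1732.5 and 2140.0 UMIs per cell. By the limits used throughout, 4402, 1346 and 264 WT cells and 2557, 1359 and 419 cKO cells held under 3000, from 3000 to below 10000, and 10000 or more UMIs. The female label did not match the WT library, where Y-linked transcripts gave 2542 UMIs against 1 in the cKO library. *Eif4g2* itself was higher in the library labelled cKO, at 274 CPM against 223 CPM in WT, so its level did not bear out the label. Which part of the gene is deleted and where its UMIs fall is not given in the sources used here, and WT and cKO mean throughout the libraries with these labels. Doublets were neither called nor removed, and 1055 barcode names, which are running names and not sequences, occurred in both libraries. Stages were rebuilt by clustering without the 40 genes and named from fixed markers, and stages that rest on different clusters in the 2 libraries are named as such beside the results.

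DN-like cells numbered 97 in WT and 130 in cKO, cycling cells 1001 and 1308, DP-like cells 3336 and 2091, early post-selection-like cells 704 and 549, and mature SP-like cells 674 and 200. The names rest on markers such as the following, so the levels of these markers do not check the names. In DN-like cells *Il2ra*, an interleukin-2 receptor chain, reached 379 CPM in the WT and 302 CPM in the cKO library, *Rag1* was at 986 and 1020 CPM in DP-like cells, and *Ccr7* at 310 and 172 CPM in mature SP-like cells. The stages differed widely in depth, with median UMIs per cell of 1399 in WT and 1360 in cKO DP-like cells against 5222 and 6354 in cycling cells.

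All 40 genes were detected in both libraries and 39 of them reached 50 UMIs in each. The exception was *Mycn*, a paralogue of *Myc* best known from embryonic and neural tissue, with 20 UMIs in WT and 16 in cKO. Together the genes took 75250 UMIs in WT (0.410% of the library) and 94322 in cKO (0.522%). Over both libraries *Npm1* held 17.6% of these UMIs, *Ncl* 16.2% and *Nop10* 9.56%, so that 43.3% came from these 3. Their part in the sum of a single stage or bin differed.

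Summed over the 40 genes, DP-like cells stood lowest among the 5 thymocyte stages and DN-like and cycling cells highest. In WT the sum was 5703 CPM (5517 to 5894) in DN-like cells, 5701 CPM (5647 to 5755) in cycling cells, 2328 CPM (2287 to 2370) in DP-like cells, 3471 CPM (3375 to 3570) in early post-selection-like cells and 3601 CPM (3528 to 3676) in mature SP-like cells. In cKO the same stages held 5952 CPM (5795 to 6112), 6207 CPM (6162 to 6253), 2782 CPM (2727 to 2839), 3891 CPM (3785 to 3999) and 3751 CPM (3615 to 3891). The intervals of DN-like and cycling cells overlapped in WT and not in cKO, and those of early and mature cells overlapped in both libraries. Per cell the contrast was wider, since cycling cells also held more RNA: a WT cell carried 43.0 UMIs of these genes when cycling and 3.66 when DP-like, and a cKO cell 53.9 and 4.56.

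The sum was higher at higher UMI content within some stages and not within others. In DP-like cells it was 2332 CPM under 3000 UMIs and 2285 CPM from 3000 to below 10000 (the middle bin) in WT, and 2788 and 2721 CPM in cKO, with log2 ratios of −0.03 (−0.12 to 0.06) and −0.04 (−0.12 to 0.04). A larger DP-like cell thus held no larger share of these transcripts. Cycling cells went from 2926 CPM under 3000 UMIs over 3829 to 7494 CPM at 10000 UMIs and over in WT, and from 3298 over 4140 to 7847 CPM in cKO. DN-like cells were at 4295, 4927 and 7489 CPM in the same bins in WT and at 4857, 5526 and 6708 CPM in cKO. Those under 3000 UMIs, only 16 cells in WT and 7 in cKO, stood above DP-like cells of the same bin. They were not matched in depth, with medians of 2205.5 and 2531.0 UMIs against 1376.0 and 1323.5 in DP-like cells. Between the lower 2 bins the log2 ratio was 0.46 in WT and 0.33 in cKO for early post-selection-like cells, and 0.40 and −0.06 for mature SP-like cells.

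**Figure D1:**
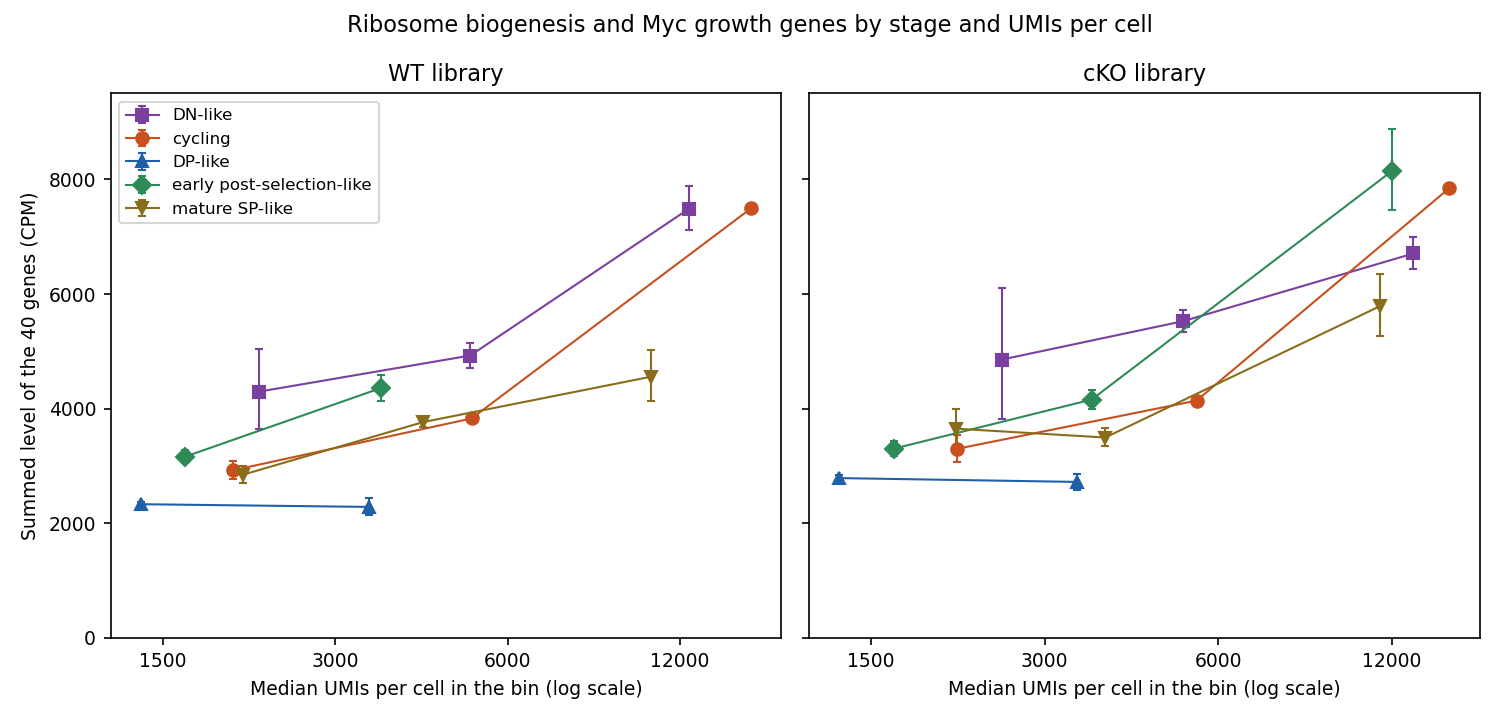
Summed level of the 40 genes in CPM (vertical axis) against the median UMIs per cell of each UMI bin (horizontal axis, log scale), for the 5 stages in the WT library (left) and the cKO library (right). Points are sums over the cells of 1 stage and bin, bars are exact Poisson 95% intervals, DP-like cells stay between 2285 and 2788 CPM at both depths, and the points of early post-selection-like and mature SP-like cells at 10000 UMIs and over hold 5 to 8 cells each.

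Stage by stage, each member was compared with its own level in DP-like cells of the same library. In DN-like cells 22 of 35 members tested were called higher in WT, where 6.94% of all genes were, and 19 of 35 in cKO, where 5.74% were. Cycling cells had 24 of 39 members higher in WT (9.94% of all genes) and 21 of 39 in cKO (8.07%). After selection the counts were smaller: 12 of 36 in WT (4.05%) and 6 of 33 in cKO (2.61%) in early post-selection-like cells, and 14 of 36 in WT (6.78%) and 7 of 33 in cKO (3.09%) in mature SP-like cells. In the other direction 1 member, *Wdr12*, was called lower in each of these comparisons, with *Utp20* beside it in mature SP-like cells of cKO. Of all genes 29.8% in WT and 31.2% in cKO were called lower in DN-like cells, 31.6% and 34.9% in cycling cells, 8.61% and 9.65% in early and 20.6% and 25.0% in mature cells. The median log2 ratio of the members ran against that of all genes: 1.35 against −0.53 in DN-like cells of WT, 1.25 against −0.58 in cycling cells, 0.71 against −0.14 in early and 0.73 against −0.47 in mature cells, and 1.28 against −0.57, 1.17 against −0.64, 0.62 against −0.23 and 0.51 against −0.54 in cKO. After selection the counts depended on scaling. In mature SP-like cells of cKO 13 were higher and 1 lower once mitochondrial and ribosomal protein genes were left out of the totals (5.28% and 13.9% of all genes), and 18 and 1 relative to the median of all genes (7.87% and 9.66%). Relative to that median 25 were higher in mature SP-like cells of WT (11.8%) and 14 in early post-selection-like cells of cKO (4.38%). The count of mature SP-like cells of cKO also moved with the clustering, to 4 at a resolution of 0.6 and 1 at 1.6.

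DP-like cells were the lowest of the 5 stages for 37 of the 40 members in WT and for 32 in cKO, where mature SP-like cells were lowest for another 6. This ranking used no minimum of UMIs and includes *Mycn*, at 0 CPM in DP-like cells of both libraries. Shares of all genes with the same lowest or highest stage are not given, so these rankings have no background. The highest stage was DN-like for 19 members in WT and 18 in cKO, and cycling for 12 and 16. Depth went with the stage, so the contrasts were repeated within a UMI bin, where medians were closer and still differed, with 3431 UMIs in WT DP-like cells of the middle bin against 5192 in cycling and 5164 in DN-like cells. Among cells of the middle bin the sum over the members exceeded that of DP-like cells by a log2 ratio of 1.11 in WT and 1.02 in cKO for DN-like cells, 0.74 and 0.61 for cycling cells, 0.93 and 0.61 for early post-selection-like cells and 0.72 and 0.36 for mature SP-like cells. Under 3000 UMIs the ratios were 0.33 and 0.24 for cycling, 0.44 and 0.24 for early and 0.29 and 0.39 for mature cells. Each stage compared thus stood above DP-like cells within the same UMI bin, with smaller ratios in cycling cells than the 1.29 in WT and 1.16 in cKO over all bins.

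**Figure D2:**
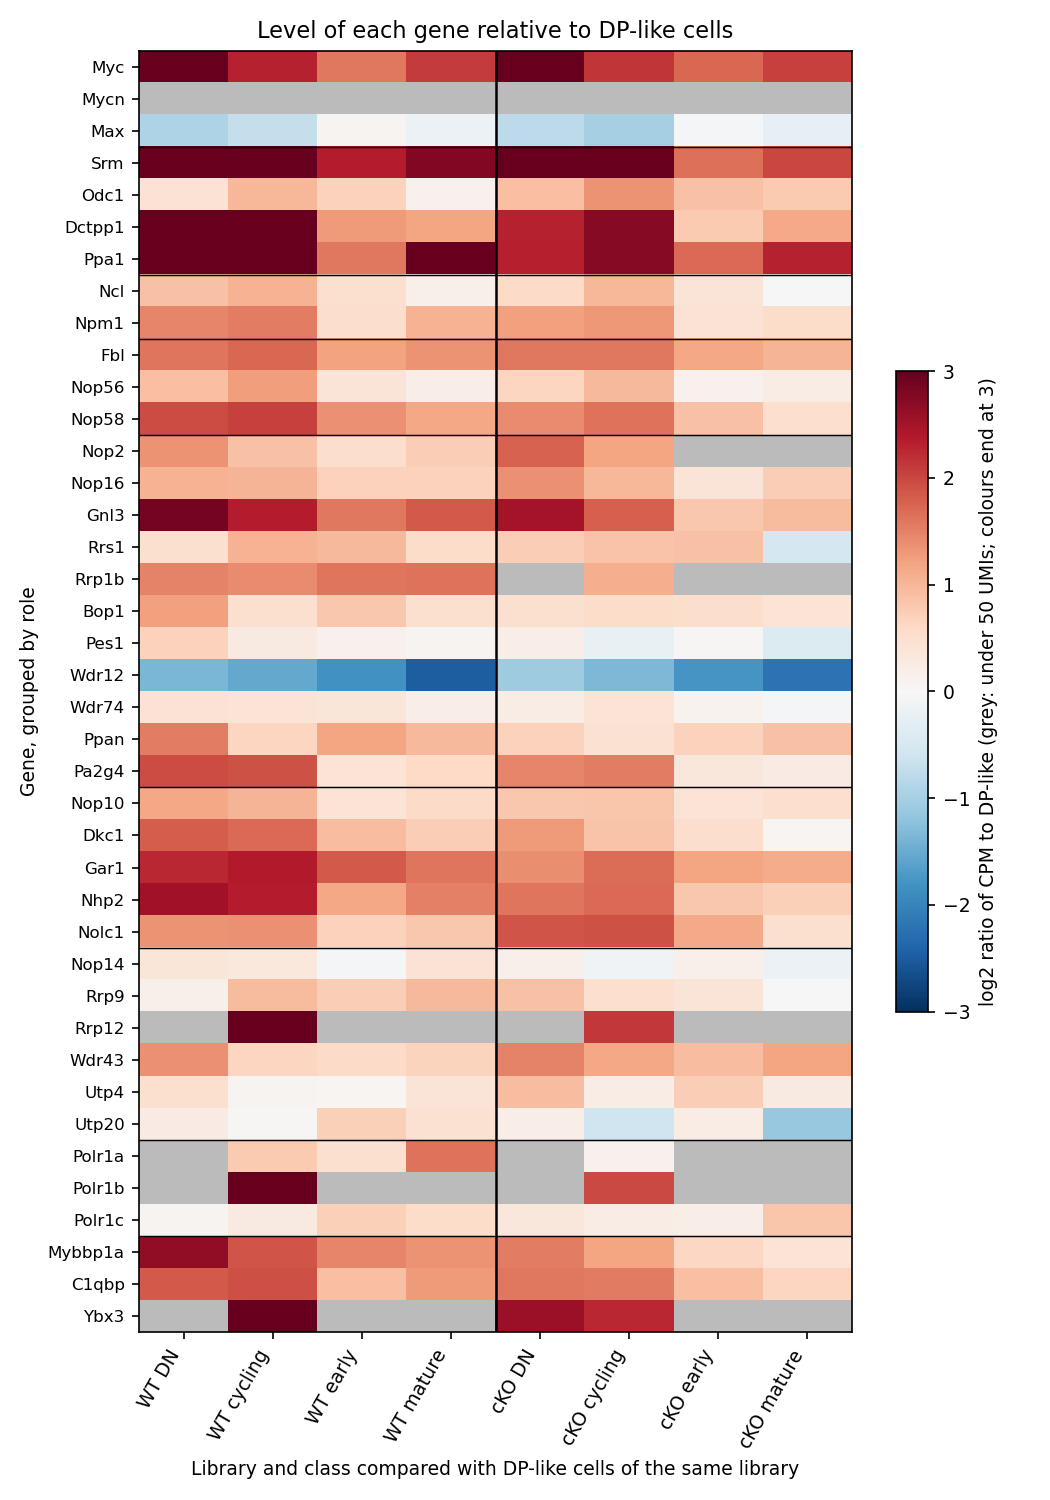
log2 ratio of CPM of each gene (rows, grouped by role) to DP-like cells of the same library, for 4 classes in WT (left) and 4 in cKO (right). Red is higher and blue lower than in DP-like cells, colours end at 3, and grey marks pairs with under 50 UMIs; the rows of *Srm*, *Dctpp1* and *Ppa1* are red in every column, and *Wdr12* is blue in every column.

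*Myc*, the transcription factor of the programme (chr15:61985391-61990374, plus strand), gave 62 UMIs in DN-like cells of WT (99.6 CPM), 342 in cycling cells (45.3 CPM), 48 in DP-like cells (9.15 CPM), 39 in early post-selection-like cells (27.4 CPM) and 99 in mature SP-like cells (39.1 CPM). In cKO it gave 85 UMIs (92.9 CPM), 440 (38.7 CPM), 30 (8.75 CPM), 38 (28.9 CPM) and 28 (36.5 CPM). The order of the stages was the same in both libraries, DN-like cells highest and DP-like cells lowest, while cycling, mature and early cells in between had intervals that partly overlapped. Against DP-like cells the log2 ratio in DN-like cells was 3.44 (2.88 to 4.02) in WT and 3.41 (2.79 to 4.06) in cKO, and in mature SP-like cells 2.09 (1.58 to 2.62) and 2.06 (1.26 to 2.85). A *Myc* UMI was seen in 36.1% of DN-like, 16.4% of cycling and 1.26% of DP-like cells of WT and in 37.7%, 16.7% and 1.39% of those of cKO. Cells led by antigen-presenting genes, which are not T cells, were left unnamed. They had a *Myc* UMI in 4.69% (3 of 64 cells, median 1988 UMIs) and 7.69% (2 of 26 cells, median 1799 UMIs). The shares in DP-like cells, at medians of 1399 and 1360 UMIs, were lower, so they are not read as expression. Whether they are background was not tested. When every cell was thinned to 1000 UMIs the shares were 9.28% (4.33 to 16.9) in DN-like, 3.20% (2.20 to 4.48) in cycling, 2.27% (1.30 to 3.66) in early, 2.67% (1.59 to 4.19) in mature and 0.869% (0.583 to 1.25) in DP-like cells of WT. In cKO they were 7.69% (3.75 to 13.7), 2.29% (1.55 to 3.26), 2.55% (1.40 to 4.24), 4.0% (1.74 to 7.73) and 0.717% (0.402 to 1.18). At this depth the cells led by antigen-presenting genes had 0 of 64 and 0 of 26, which allow shares of up to 4.69% and 11.5%. So few cells cannot show whether thinned shares below those limits lie above background. In both libraries the thinned intervals of DN-like, cycling, early and mature cells lay above that of DP-like cells.

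*Mycn* was counted at 2 UMIs in DN-like and 15 in cycling cells of WT and at 6 and 9 in cKO, with 0 in DP-like cells of both libraries. *Max*, the partner that Myc needs to bind DNA (chr12:76937269-76962201, minus strand), had another order. It was at 38.6 CPM in DN-like, 44.9 in cycling, 73.4 in DP-like, 78.0 in early and 65.1 in mature cells of WT, and at 60.1, 52.4, 104, 99.7 and 87.3 CPM in cKO. Its log2 ratio of cycling to DP-like cells was −0.71 (−0.93 to −0.50) in WT and −0.99 (−1.18 to −0.79) in cKO, in the direction of the median of all genes. A second gene on the same strand overlaps *Max*, so its UMIs are uncertain. Only 20 of the 40 members had no overlapping gene, so the same doubt holds for others, such as *Gnl3*, *Nop56*, *Dkc1* and *Pa2g4*.

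Among the metabolic genes, *Srm* encodes spermidine synthase, *Odc1* ornithine decarboxylase at the entry to polyamine synthesis, *Dctpp1* a pyrophosphatase that cleans the nucleotide pool and *Ppa1* the inorganic pyrophosphatase. *Srm* was at 120 CPM in DN-like, 102 in cycling, 8.96 in DP-like, 45.7 in early and 61.2 in mature cells of WT, and at 138, 146, 15.2, 48.0 and 61.3 CPM in cKO. Its log2 ratio of cycling to DP-like cells was 3.51 (3.09 to 3.97) in WT and 3.27 (2.87 to 3.70) in cKO. *Ppa1* went from 6.10 CPM in DP-like to 86.0 in cycling cells of WT and from 12.5 to 83.9 CPM in cKO, log2 ratios of 3.82 (3.31 to 4.38) and 2.74 (2.30 to 3.22), and it stayed higher in mature SP-like cells, at 52.9 and 62.6 CPM. *Dctpp1* went from 30.7 to 323 CPM and from 55.4 to 366 CPM, but reached 70.3 and 121 CPM in mature cells. These 3 were called higher in cycling, DN-like and mature cells of both libraries. *Odc1* moved less, from 33.4 CPM in DP-like to 66.7 in cycling cells of WT and from 36.2 to 91.8 CPM in cKO.

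**Figure D3:**
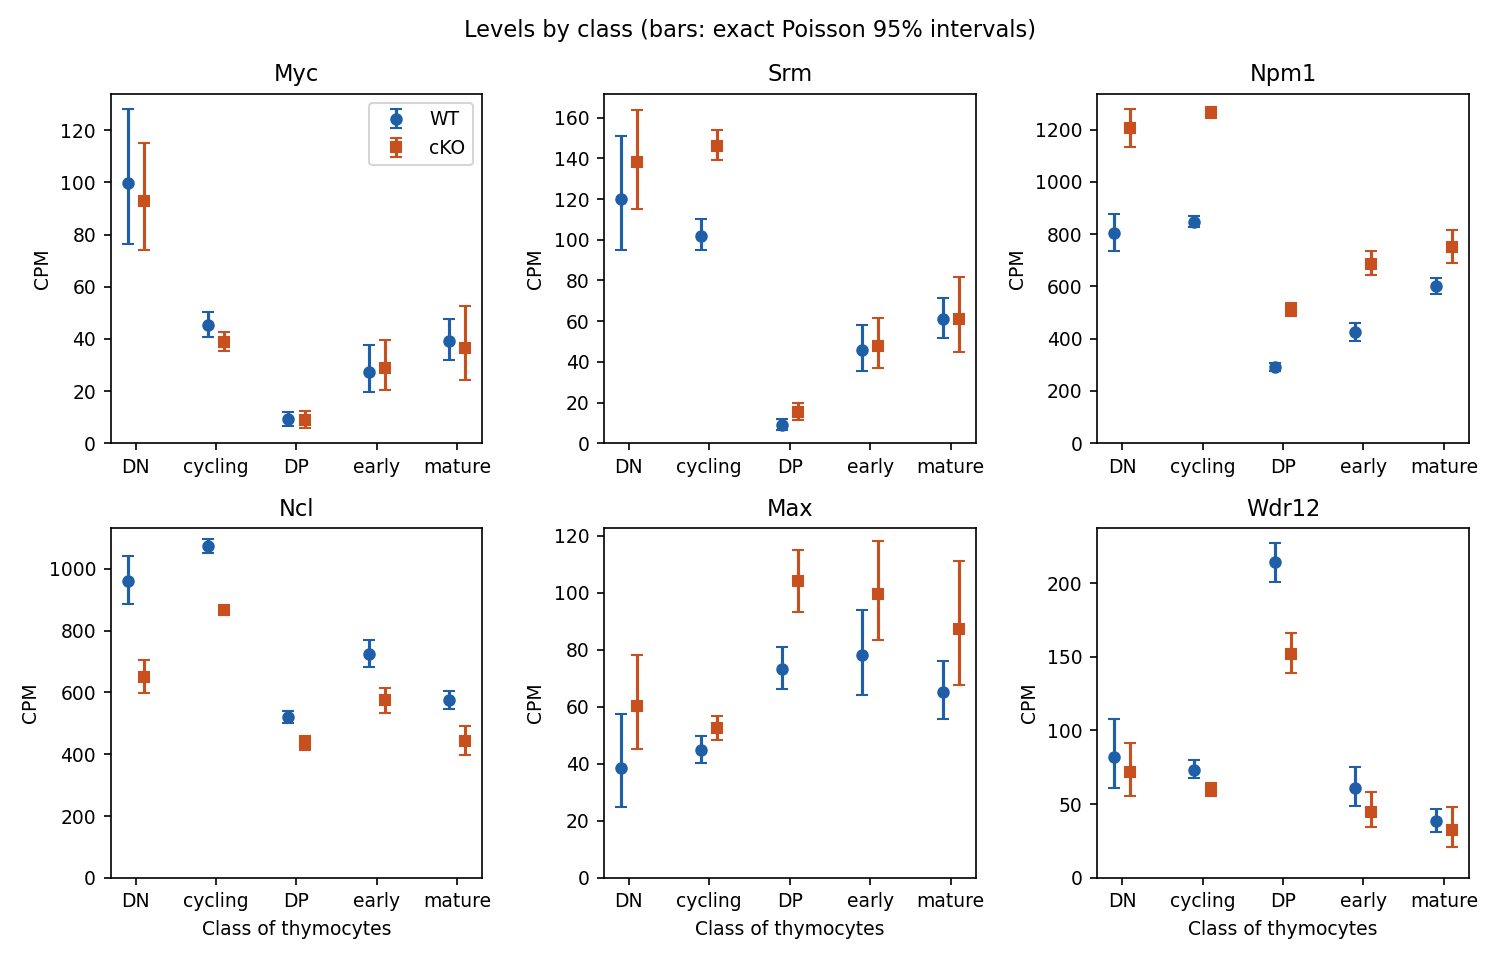
Levels of 6 genes in CPM (vertical axes, each from 0) in the 5 classes of thymocytes of the WT and the cKO library. Points are summed UMIs on the CPM scale, bars exact Poisson 95% intervals; *Myc* and *Srm* are lowest in DP-like cells, *Wdr12* is highest there at 214 and 152 CPM, and *Npm1* lies higher and *Ncl* lower in cKO than in WT in every class.

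The nucleolar proteins were the most counted members. *Npm1*, a histone and ribosome chaperone (chr11:33152287-33163206, minus strand), was at 803 CPM in DN-like, 848 in cycling, 293 in DP-like, 424 in early and 600 in mature cells of WT, and at 1205, 1267, 511, 687 and 751 CPM in cKO. *Ncl*, which packs nascent ribosomal RNA, was at 961, 1073, 521, 725 and 576 CPM in WT and at 650, 867, 437, 574 and 442 CPM in cKO. *Ncl* lay close to its DP-like level in mature SP-like cells, with a log2 ratio of 0.15 (0.05 to 0.24) in WT and 0.02 (−0.16 to 0.19) in cKO, whereas *Npm1* had ratios of 1.04 (0.93 to 1.14) and 0.55 (0.42 to 0.69).

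All 3 box C/D genes were called higher in cycling cells of WT and 2 of the 3 in cKO. Of these *Fbl*, the methyltransferase, went from 96.1 CPM in DP-like to 316 CPM in cycling cells of WT and from 124 to 376 CPM in cKO, and remained at 245 and 252 CPM in mature SP-like cells. *Nop58*, a core protein of the same particle, went from 48.1 to 198 CPM and from 70.3 to 217 CPM, and its partner *Nop56* from 87.1 to 207 and from 89.8 to 176 CPM, the latter a log2 ratio of 0.97 (0.79 to 1.15). All 5 box H/ACA genes were called higher in cycling cells of WT and 3 of the 5 in cKO. *Gar1* and *Nhp2*, core proteins of these particles, had the highest ratios in WT, 2.37 (2.12 to 2.62) and 2.35 (2.15 to 2.56), against 1.67 (1.45 to 1.90) and 1.69 (1.5 to 1.89) in cKO. *Nolc1*, a chaperone of snoRNPs, had ratios of 1.38 (1.17 to 1.6) in WT and 1.91 (1.58 to 2.26) in cKO. *Dkc1*, the pseudouridine synthase, was at 109 CPM in cycling and 33.8 in DP-like cells of WT and at 85.6 and 47.5 CPM in cKO, and the small core protein *Nop10* at 433 and 215 CPM and at 628 and 353 CPM.

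The assembly factors were mixed. Of the 11 large subunit factors 5 in WT and 4 in cKO were called higher in cycling than in DP-like cells and 1 was lower. *Gnl3*, nucleostemin of the nucleolus, led the higher ones in DN-like cells, with 125 CPM against 17.0 in DP-like cells of WT and 122 against 21.6 CPM in cKO. *Pa2g4*, which binds ribosomal precursors and is linked to cell growth, was at 340 against 91.3 CPM in cycling cells of WT and at 324 against 112 CPM in cKO. The other large subunit factors *Nop2*, *Nop16*, *Rrs1*, *Rrp1b*, *Ppan* and *Wdr74* had ratios of cycling to DP-like cells from 0.41 (*Wdr74*) to 1.42 (*Rrp1b*) in WT and from 0.40 (*Wdr74*) to 1.18 (*Nop2*) in cKO. *Bop1*, *Pes1* and *Wdr12* encode the 3 subunits of 1 complex that matures the large subunit RNA, and their levels did not move together. *Bop1* had log2 ratios of cycling to DP-like cells of 0.47 (0.15 to 0.80) in WT and 0.54 (0.16 to 0.94) in cKO and *Pes1* of 0.26 (0.01 to 0.52) and −0.23 (−0.47 to 0.03). *Wdr12* (chr1:60069785-60098645, minus strand) was at 1121 UMIs in DP-like cells of WT (214 CPM) against 555 (73.5 CPM) in cycling, 51 (81.9 CPM) in DN-like, 87 (61.1 CPM) in early and 97 (38.3 CPM) in mature cells, and at 152 CPM against 59.6, 72.1, 44.9 and 32.6 CPM in cKO. Its ratio of mature SP-like to DP-like cells was −2.48 (−2.80 to −2.18) in WT and −2.22 (−2.86 to −1.64) in cKO. *Carf* overlaps *Wdr12* on the opposite strand, and which of the genes gave these UMIs was not tested.

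The small subunit factors and the polymerase moved less. Among the 6 small subunit genes, *Rrp12*, which acts in the export of subunits, was called higher in cycling cells of both libraries, from 10 UMIs in DP-like (1.91 CPM) to 120 in cycling cells (15.9 CPM) of WT and from 8 (2.33 CPM) to 116 (10.2 CPM) in cKO. *Wdr43*, a subunit of the early processome, passed the limit in cKO with 1.17 (0.84 to 1.52) and not in WT with 0.64 (0.41 to 0.87). *Rrp9*, a protein of the U3 snoRNP, was at 0.96 (0.62 to 1.30) and 0.51 (0.16 to 0.88), and *Nop14* at 0.31 (0.03 to 0.60) and −0.10 (−0.43 to 0.24). *Utp4* and *Utp20* of the same processome had ratios of 0.09 (−0.24 to 0.42) and 0.04 (−0.37 to 0.46) in WT and of 0.22 (−0.19 to 0.64) and −0.60 (−1.10 to −0.08) in cKO. For RNA polymerase I, the second largest subunit *Polr1b* was at 9.27 CPM in cycling and 1.14 CPM in DP-like cells of WT (70 and 6 UMIs) and at 8.01 and 2.04 CPM in cKO (91 and 7 UMIs). The largest subunit *Polr1a* and *Polr1c*, which RNA polymerase III shares, stayed within the limit at 0.78 (0.24 to 1.35) and 0.26 (−0.02 to 0.54) in WT and 0.13 (−0.51 to 0.81) and 0.22 (−0.05 to 0.51) in cKO. The 3 remaining genes were called higher in both. *C1qbp*, a mostly mitochondrial protein, was at 225 against 58.7 CPM in WT and 275 against 92.7 CPM in cKO, the nucleolar *Mybbp1a* at 56.9 against 15.4 and 51.8 against 22.7 CPM, and the nucleic acid-binding *Ybx3* at 39.0 against 4.20 and 36.5 against 7.58 CPM.

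By UMI content alone, cells of 10000 UMIs and over were set against cells under 3000. The sum over the members was 7190 CPM against 2546 CPM in WT, 2.82-fold higher on a log2 ratio of 1.5 (1.47 to 1.52), and 7707 against 2941 CPM in cKO, a log2 ratio of 1.39 (1.36 to 1.42). Of 39 members tested 27 were called higher in WT, where 8.85% of all genes were, and 26 in cKO, where 7.83% were. *Wdr12* was called lower in WT, where 36.9% of all genes were, and *Wdr12* and *Max* in cKO, where 39.0% were. The median log2 ratio was 1.30 for the members and −0.67 for all genes in WT, and 1.39 and −0.73 in cKO.

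*Srm*, *Ppa1*, *Dctpp1*, *Ybx3* and *Polr1b* had the 5 highest ratios of this contrast in both libraries. *Srm* was at 676 UMIs (151 CPM) in the largest and 105 (14.9 CPM) in the smallest cells of WT, and at 1515 (217 CPM) and 77 (19.2 CPM) in cKO, log2 ratios of 3.34 (3.04 to 3.65) and 3.5 (3.17 to 3.85). *Ybx3* had ratios of 3.89 (3.34 to 4.50) and 2.5 (2.0 to 3.04), *Ppa1* of 3.23 (2.90 to 3.58) and 2.56 (2.22 to 2.93) and *Dctpp1* of 3.02 (2.86 to 3.19) and 2.83 (2.64 to 3.02). *Polr1b* rested on 61 against 13 UMIs in WT and 82 against 6 in cKO. *Myc* lay at 302 UMIs (67.3 CPM) against 107 (15.2 CPM) in WT and at 381 (54.7 CPM) against 52 (13.0 CPM) in cKO, with 2.15 (1.82 to 2.48) and 2.07 (1.65 to 2.52). The abundant *Npm1* went from 315 to 1093 CPM and from 499 to 1647 CPM, and *Ncl* from 540 to 1312 and from 464 to 1032 CPM. All 4 metabolic genes, all 3 box C/D genes and all 5 box H/ACA genes were called higher in both libraries. Large subunit factors were called in 6 of 11 cases in WT and 5 of 11 in cKO, small subunit factors in 2 of 6 and RNA polymerase I subunits in 1 of 3 in each.

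At the other end, *Wdr12* was at 306 UMIs (68.2 CPM) in the largest and 1177 (167 CPM) in the smallest cells of WT and at 432 (62.0 CPM) and 505 (126 CPM) in cKO, with −1.29 (−1.48 to −1.11) and −1.02 (−1.21 to −0.84). *Max* was at 44.1 against 72.8 CPM and 51.0 against 110 CPM, with −0.72 (−0.97 to −0.48) and −1.11 (−1.31 to −0.90). *Utp4*, *Utp20* and *Polr1c* had ratios of 0.22 to 0.23 in WT, and in cKO *Utp20* was at −0.53 (−1.03 to −0.03), *Nop14* at 0.00 (−0.33 to 0.34) and *Pes1* at 0.08 (−0.17 to 0.32). Of the 8 genes with an E-box in the window, *Ppa1*, *Mybbp1a* and *Nop2* were called higher in both libraries, *Wdr43* in cKO, and *Max* lower in cKO, while *Pes1*, *Utp4* and *Utp20* were not called.

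**Figure D4:**
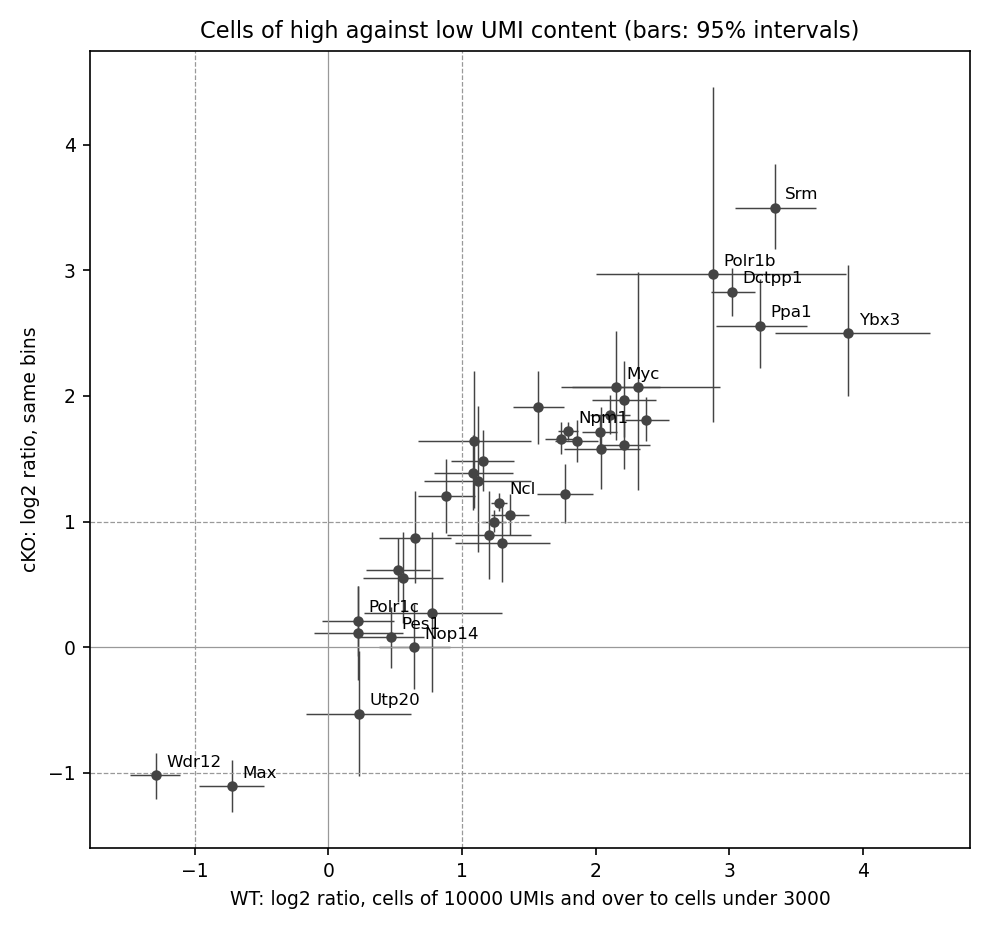
log2 ratio of CPM of each member in cells of 10000 UMIs and over to cells under 3000, in WT (horizontal axis) and in cKO (vertical axis). Points are the 39 members tested, bars exact conditional 95% intervals, dashed lines the limit of 1; *Srm* lies at 3.34 and 3.5, and *Wdr12* and *Max* lie below 0 in both libraries.

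Cell cycle and UMI content went together, since cycling cells made up 85.2% of WT and 90.0% of cKO cells of 10000 UMIs and over, and DP-like cells 73.1% and 75.8% of those under 3000. With the cycling clusters 2, 6 and 10 and the cells outside the T lineage left out, 17 of 36 members tested were still called higher in WT (7.25% of all genes) and 20 of 34 in cKO (5.26%), now between 31 and 4133 cells and between 42 and 2426 cells. The 31 and 42 large cells still held 12 and 23 DN-like cells and 7 and 6 cells of an unnamed mature cluster with G2 and M phase genes at 7534 and 7264 CPM, so cells in cycle were not all left out. *Myc* had log2 ratios of 2.37 in WT and 1.97 in cKO in these cells, *Srm* of 2.99 and 3.02 and *Npm1* of 1.34 and 1.35. Within cycling cells, those of 10000 UMIs and over were set against all smaller ones. Here 20 of 39 members were called higher in WT, where 1.91% of all genes were, and 17 of 39 in cKO, where 1.67% were, and the median ratio was 1.01 against −0.28 for all genes in WT and 0.90 against −0.27 in cKO. *Srm* was at 158 against 41.2 CPM in WT and 223 against 47.6 CPM in cKO, *Myc* at 67.3 against 20.9 and 55.1 against 17.7 CPM and *Npm1* at 1148 against 516 and 1681 against 735 CPM. *Max* had ratios of −0.07 (−0.38 to 0.25) and −0.14 (−0.38 to 0.10), and *Wdr12* of −0.11 (−0.35 to 0.14) and 0.20 (−0.02 to 0.43), so neither gene differed detectably by UMI content among cycling cells.

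Phase markers moved with UMI content among cycling cells as well. A list of 24 genes of G2 and M phase, such as *Mki67* and *Top2a*, summed to 7893, 8130 and 4527 CPM from the lowest to the highest bin in WT and to 8388, 7086 and 4382 CPM in cKO. A list of 24 genes of S phase went from 2494 over 3951 to 3948 CPM and from 2756 over 4443 to 3904 CPM. Their part in the members' contrast was not tested. The bead number in a barcode's name, a count of capture beads merged into 1 cell, had a median of 2 in every bin of both libraries. Cycling cells of 1, 2, 3 and 4 beads held sums of 5584, 5507, 6196 and 6228 CPM in WT and 6192, 6264, 6163 and 6197 CPM in cKO.

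Other genes of the same pathways, in lists that leave out the 40, were less marked. Of 143 such genes tested, 29 were called higher and 9 lower in the largest against the smallest cells of WT and 22 and 12 in cKO, with median log2 ratios of 0.23 and 0.03, where 8.85% of all genes were higher and 36.9% lower in WT and 7.83% and 39.0% in cKO. Further large subunit factors were called higher in 5 of 43 cases in WT and 2 of 43 in cKO and small subunit factors in 3 of 51 and 2 of 51, with 1 of each lower in WT and 2 in cKO. By contrast 17 of 23 other Myc growth genes were higher in both, with medians of 1.56 and 1.38. *Cad*, which opens pyrimidine synthesis, was at 3.03 and 2.95 and *Shmt2*, of mitochondrial one-carbon metabolism, at 2.67 and 2.54. In the wider Myc network 1 gene was higher and 6 of the 8 tested were lower in both libraries, the direction of the median of all genes. The lower ones included *Mxd4*, a Max partner known to oppose Myc, at −3.03 and −2.85, and the higher one was *Mxd3*, a relative linked to dividing cells, at 2.37 and 2.78.

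The direction between genotypes follows the labels, which the level of *Eif4g2* did not bear out. The sum over the members was higher in cKO than in WT by a log2 ratio of 0.26 (0.22 to 0.30) in DP-like cells. In early post-selection-like cells the ratio was 0.16 (0.11 to 0.22) and in cycling cells 0.12 (0.11 to 0.14). It was 0.06 (0.00 to 0.12) in both DN-like and mature SP-like cells. All of these lie below the limit of 0.5. Without *Npm1*, *Ncl* and *Nop10* the ratios were 0.19 in DP-like, 0.09 in early, 0.04 in cycling, 0.00 in DN-like and −0.03 in mature cells. Since each genotype is 1 library of 1 mouse, genotype, mouse and library cannot be told apart. The libraries also differed in Y-linked transcripts, so sex cannot be told apart from genotype either.

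DP-like cells had the most members called. There 11 of 36 were higher in cKO (8.30% of all genes) and 2 lower (29.7%), with a median of 0.30 against −0.18 for all genes. *Npm1* went from 293 to 511 CPM, a log2 ratio of 0.80 (0.70 to 0.90), and *Nop10* from 215 to 353 CPM, 0.71 (0.60 to 0.83). *Ppa1* was at 32 UMIs in WT (6.10 CPM) and 43 in cKO (12.5 CPM), 1.04 (0.34 to 1.75). *Dctpp1* and *Gar1* both had 0.85 and *Srm* 0.76, and *Nhp2*, *Rrs1*, *C1qbp*, *Mybbp1a* and *Nop58* followed between 0.55 and 0.71. The lower ones were the snoRNP chaperone *Nolc1*, from 43.5 to 23.3 CPM (−0.90, −1.28 to −0.52), and *Wdr43* at −0.84. DP-like cells came mostly from clusters 0 and 1 in WT and from cluster 4 in cKO, and a cluster made mostly of 1 library may be that library and not a type. Within each of clusters 0, 1 and 4 the sum was higher in cKO, by 0.23, 0.17 and 0.24. Without *Npm1*, *Ncl* and *Nop10* the ratios were 0.27, 0.06 (−0.10 to 0.21) and 0.42. The phase lists were also higher in cKO in each of these clusters. In cluster 0 the S phase list was at 929 against 463 CPM and the G2 and M phase list at 1030 against 289 CPM. Their part in these ratios was not tested. Single genes were less even: *Srm* was lower in cKO within cluster 1 (−0.85) and cluster 4 (−0.21), *Nop58* (−0.35) and *Rrs1* (−0.52) within cluster 0, and *Nhp2* (−0.16) and *Mybbp1a* (−0.04) within cluster 1, while *Nolc1* was higher within cluster 4 (0.41).

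Cycling cells had 3 of 39 members called higher in cKO (3.19% of all genes) and 4 lower (35.4%), with medians of −0.10 for the members and −0.28 for all genes. The higher ones were *Npm1* with 0.58 (0.54 to 0.62), *Nop10* with 0.54 (0.48 to 0.60) and *Srm* with 0.52 (0.39 to 0.64), and the lower ones *Utp20* (−0.82), *Polr1a* (−0.66), *Rrp12* (−0.64) and *Rrp1b* (−0.63). The pooled cycling cells, however, were made of different clusters. Clusters 2 and 6 held most of them in WT (431 and 532 of 1001 cells), and cluster 10 in cKO (786 of 1308 cells, against 38 in WT). Within each cluster the sum was lower in cKO: 5407 against 7017 CPM in cluster 2 (−0.38, −0.41 to −0.34), 2937 against 4289 CPM in cluster 6 (−0.55, −0.59 to −0.50) and 7153 against 8301 CPM in cluster 10 (−0.21, −0.29 to −0.14). In cluster 2, 0 of 39 members were called higher (10.3% of all genes) and 17 lower (13.8%), in cluster 6 the counts were 1 and 22 of 35 (9.79% and 27.6%), and in cluster 10 they were 5 and 14 of 39 (26.9% and 24.2%). *Myc* had ratios of −0.80 (−1.28 to −0.34), −1.29 (−2.03 to −0.61) and −0.77 (−1.51 to 0.08) in clusters 2, 6 and 10, *Ncl* of −0.69, −0.69 and −0.52 and *Srm* of −0.36, −1.61 and −0.19. *Npm1* was at −0.02, −0.31 and 0.05. The direction of the sum between genotypes therefore turned with the pooling of clusters, and the cKO surplus of the pooled class went with its larger share of cluster 10. The G2 and M phase list was higher in cKO in clusters 2 and 6 (4605 against 3518 CPM and 12320 against 8900 CPM) and lower in cluster 10 (4074 against 5355 CPM), and its part in these ratios was not tested.

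The other stages gave counts on both sides. DN-like cells had 6 of 32 members higher (10.4% of all genes) and 5 lower (26.8%), among them *Rrp9* at 1.03 (0.09 to 2.06), *Npm1* at 0.59 (0.43 to 0.74), *Ppan* at −1.11 (−1.83 to −0.41) and *Ncl* at −0.56 (−0.73 to −0.40). These cells would not yet be expected to have lost *Eif4g2*, but recombination was not measured. Genotype, mouse, sex and library cannot be told apart here either, and the cause of these differences was not tested. Early post-selection-like cells had 5 of 34 higher (7.79%) and 4 lower (36.6%), with *Ppa1* at 1.14, *Npm1* at 0.70 and *Rrp1b* at −1.29. Mature SP-like cells had 5 of 36 higher (9.07%) and 7 lower (36.2%), with *Dctpp1* at 0.79, *Odc1* at 0.77 and *Utp20* at −1.76 (−3.44 to −0.45). By UMI bin the counts were 9 higher and 4 lower of 37 under 3000 UMIs (7.25% and 28.2% of all genes), 3 and 6 of 39 in the middle bin (6.89% and 34.8%) and 4 and 5 of 39 at 10000 and over (3.89% and 32.1%). *Myc* was not called in any stage, with −0.10 in DN-like, −0.23 in cycling, −0.07 in DP-like, 0.08 in early and −0.10 in mature cells.

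The split of higher to lower calls between genotypes turned with scaling, as the median ratio of all genes lay between −0.10 and −0.28. Relative to that median the members had 9 higher and 1 lower in cycling (11.8% and 21.3% of all genes), 7 and 3 in DN-like (15.0% and 22.3%), 12 and 1 in early (18.7% and 23.0%) and 10 and 4 in mature cells (20% and 24.8%). In the 3 bins from low to high they had 11 and 2 (15.0% and 19.3%), 9 and 3 (17.6% and 24.2%) and 6 and 2 (11.2% and 20.6%). With mitochondrial and ribosomal protein genes left out of the totals the splits were 6 and 4 in cycling (5.37% and 29.1% of all genes), 7 and 3 in DN-like (15.0% and 22.3%), 9 and 3 in early (13.9% and 27.5%) and 7 and 5 in mature cells (15.3% and 28.8%). In the middle bin they were 8 and 5 (10.6% and 30%), and at 10000 and over 5 and 4 (6.42% and 26.1%). Of the 31 members tested in all 5 stages, *Max*, *Srm*, *Odc1*, *Dctpp1*, *Npm1*, *Fbl*, *Nop10*, *Nop16* and *C1qbp* had a ratio above 0 in each stage, and *Ncl*, *Bop1*, *Wdr12*, *Wdr43*, *Nolc1* and *Ppan* a ratio below 0 in each. *Npm1* and *Nop10* passed the limit in 4 of the 5 stages. The share of all genes with the same direction in all 5 stages is not given, so these lists have no background.

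The span of a gene on the genome went with the genotype ratio. In cycling cells members of up to 10 kb had a median log2 ratio of 0.15, those of 10 to 30 kb −0.17 and the 5 over 30 kb −0.64, and all genes of these spans had 0.01, −0.16 and −0.60. In DP-like cells the medians were 0.35, −0.08 and −0.10 for the members and 0.17, −0.06 and −0.49 for all genes. *Nop10*, with 1344 bp the shortest, was among the higher and *Utp20*, with 80198 bp the longest, among the lower in cycling cells. In mature SP-like cells the members' medians were 0.00, −0.23 and −0.84 against 0.08, −0.10 and −0.60 for all genes. The members thus stood close to other genes of their span in cycling cells, and the part of span in the genotype ratios was not tested. Red cell transcripts also differed between libraries. The list of hemoglobin genes and *Alas2* stood at 274 CPM in WT and 15.2 CPM in cKO DP-like cells, and at 546 and 12.8 CPM in cycling cells. Whether these came from free RNA, doublets or another source was not tested. The antigen-presenting list was at 348 and 332 CPM in DP-like cells.

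**Figure D5:**
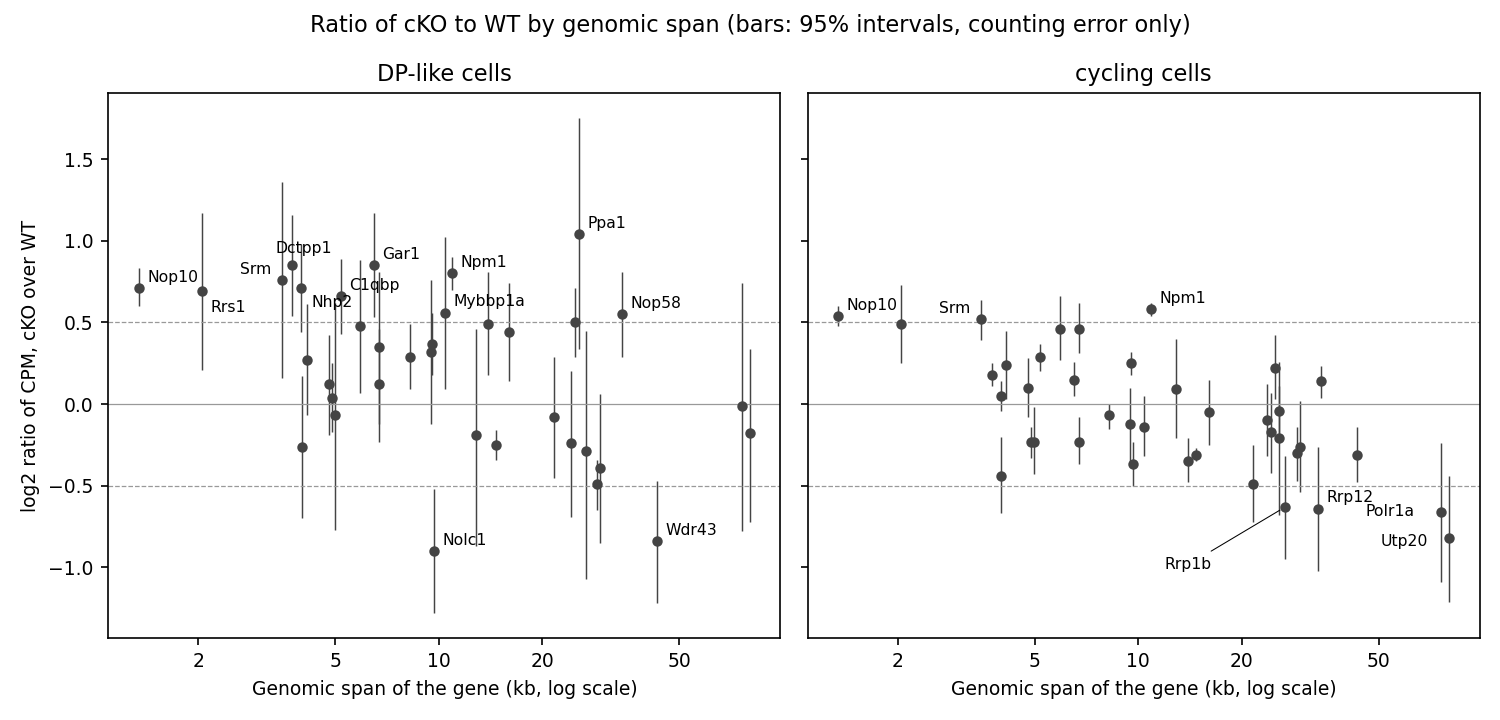
log2 ratio of CPM in cKO to WT (vertical axis) against the genomic span of each gene in kb (horizontal axis, log scale), in DP-like (left) and pooled cycling cells (right). Points are members with at least 50 UMIs over both libraries, bars exact conditional 95% intervals, and dashed lines the limit of 0.5 either way. Called genes are named. In cycling cells *Rrp1b*, *Rrp12*, *Polr1a* and *Utp20* lie below −0.5, and *Nop58* at 0.14 and *Wdr43* at −0.31, both over 30 kb, do not.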

How the data were processed

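Thymus single-cell libraries of 1 WT and 1 *Eif4g2* cKO mouse were used, grouped by the genotype label. The deposited matrices hold whole-number UMI counts per gene and barcode that the authors made with dnbc4tools (2.1.3 in the series text, 3.0 in the matrix headers), on mm10 per the submitters' processing notes. The counting can assign reads of overlapping genes to either gene. Barcodes were kept from 50 detected genes on and up to 10% mitochondrial UMIs, and genes from 3 cells on. Every barcode already held at least 1000 UMIs. Counts scaled to 10000 per cell and log-transformed were clustered in scanpy 1.11.5 (2000 genes, 30 components, 20 neighbours, Leiden resolution 1.0, seed 1), with the 40 members, the other pathway lists and *Eif4g2* kept out of the clustering genes. Clusters were named X-like where at least 3 fixed markers were raised. The members and lists were chosen with earlier results of these data known.

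UMIs were summed per class. Intervals are exact Poisson (levels), exact conditional binomial (ratios) and exact binomial (shares) at 95%, from scipy 1.17.1. A count of 0 was read as allowing up to 3 UMIs or cells. A fold limit of 2 (log2 of 1) or log2 of 0.5 and at least 50 UMIs made a call. All members could be named. Full values go to *Myc*, *Mycn* and *Max* and to the 5 highest and 5 lowest ratios of a comparison, with examples per role. Positions come from GENCODE M21, in which all 40 matched and 20 had no overlapping gene. The alternatives changed the cell filter, an upper UMI limit, bin limits, clustering, scaling, weighting and the minimum UMIs. Scripts (Python 3.11.15, numpy 2.4.6, pandas 2.3.3, anndata 0.12.19, igraph 0.11.9, matplotlib 3.10.9) were tested on simulated data.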

Additional observations from a re-analysis of the deposited data

How the results depend on the processing

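No paired analysis was possible because each genotype is 1 library with no shared replicate, and for the same reason no library could be left out. Of 233 alternative values of the counts and shares of members, 207 stayed within 1.5 times the reported one and 26 did not. Where the share of all genes at a setting is not given above, a count shows only how the number of members moved. Requiring 200 UMIs left fewer members to call: 12 in WT and 9 in cKO for DN-like against DP-like cells, 6 and 2 for early, 9 and 3 for mature cells, and 2 in DN-like, 3 in early, 3 in mature and 5 in the middle bin between genotypes. A narrower cell filter (1000 to 10000 UMIs, mitochondrial share up to 3%), which removes the bin of 10000 and over, left 11 in WT and 9 in cKO for cycling against DP-like cells and 5 between genotypes in DN-like cells. Without cycling clusters 2, 6 and 10 and the cells outside the T lineage 17 were higher in the largest WT cells. Relative to the median of all genes the counts were 25 in WT and 18 in cKO for mature and 14 in cKO for early against DP-like cells, and 20 between genotypes in DP-like cells. In cKO, mature against DP-like cells gave 4 at clustering resolution 0.6, 1 at 1.6 and 13 without mitochondrial and ribosomal protein genes in the totals. Between genotypes, cycling cells gave 12 calls at resolution 1.6 and 17, 23 and 19 within clusters 2, 6 and 10, a split chosen after seeing the data. The share of cycling cKO cells with a *Myc* UMI at 1000 UMIs was 1.35% at resolution 1.6. Of 2878 alternative values of 273 called gene ratios, 2615 stayed past the limit, 248 kept their sign within it and 15 turned. These were *Srm* (−0.36, −1.61 and −0.19 in clusters 2, 6 and 10) and *Npm1* (−0.02 and −0.31 in clusters 2 and 6) in cycling cells. In DP-like cells they were *Srm* (−0.85 and −0.21 in clusters 1 and 4), *Nop58* (−0.35) and *Rrs1* (−0.52) in cluster 0, *Nhp2* (−0.16) and *Mybbp1a* (−0.04) in cluster 1 and *Nolc1* (0.41) in cluster 4. In mature cells they were *Polr1a* (0.12 at resolution 0.6) and *Polr1c* (−0.26 at 0.6 and −0.23 at 1.6). Beyond the smaller number of members left by the 200-UMI and cell limits, the cause was not tested. Depth limited *Mycn*, at 20 and 16 UMIs, and the cKO classes of 4 to 26 cells outside the 5 stages.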

Other observations

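Outside the 40 genes, those whose level followed the members' mean most closely were ranked over 20 points, each 1 T lineage cluster of 1 library with at least 20 cells, on log2(CPM + 10). The 10 most alike were *Hsp90ab1* and *Shmt1* (Pearson r 0.97), *Shmt2* and *Mif* (0.94), *Hspd1*, *Cdk4*, *Apex1* and *Tkt* (0.93), and *Nme1* and *Aimp2* (0.92). *Hsp90ab1* and *Hspd1* encode chaperones, *Shmt1* and *Shmt2* serine hydroxymethyltransferases, *Cdk4* a kinase of the G1 phase and *Tkt* transketolase. Among the members themselves 20 had r above 0.8, with *Gnl3*, *Mybbp1a* and *C1qbp* at 0.95, *Srm*, *Dkc1* and *Gar1* at 0.93 and *Myc* at 0.85. *Wdr12* (−0.30) and *Max* (−0.60) were the 2 members below 0. The share of all genes with r above 0.8 is not given. The points share libraries, depth and clustering and are not independent, so no p is given.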
